A study of Homo sapiens with 4 samples.

Results

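Collagens are the main structural proteins of the extracellular matrix. Each molecule is a triple helix of 3 chains, which may all come from the same gene or from different genes. The collagen chain genes were examined here in LN229, an established human glioblastoma cell line, and their members were all genes of the deposited table named COL, a type number, A and a chain number. There were 37 such genes of 27694 in the table, of which 11 encode chains of fibrillar collagens, 6 encode the type IV chains of basement membranes and 20 encode chains of other types. RNA-seq compared 2 vehicle libraries, from cells that received DMSO, with 2 UM-164 libraries, from cells that received this inhibitor of c-Src and p38 at 100 nM, each for 24 h. All were of the same line, grown with fetal bovine serum. Whether replicates were grown as separate cultures is not stated, and p-values therefore reflect only library-to-library spread, which may be technical.

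Fibrillar collagens form the rope-like fibrils of connective tissue, and type IV collagen forms the sheet-like network of basement membranes. The other types include the FACIT collagens, which sit on the surface of fibrils, the type VI beaded filaments, the type VIII network, collagens that span the cell membrane, and types XV and XVIII, which carry heparan sulfate or chondroitin sulfate chains and are found at basement membranes. In normal brain, collagen is largely limited to vessels and the meninges, whereas glioma cells in culture can make several types.

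Values are FPKM, fragment values corrected for the length of the transcript and the size of the library, so levels of different genes can be compared per length. The read counts behind a value are unknown. LN229 libraries held the mesenchymal marker VIM and the neural stem cell marker NES at high levels, while GFAP, the defining astrocyte marker, was at 0.120 FPKM or less in every library. The other markers of the line differed in direction between the groups. The glial marker S100B rose from 328 and 305 FPKM in vehicle to 536 and 559 FPKM in UM-164 libraries (log2 fold change 0.79, adjusted p = 0.0326 from limma), a call that was lost when any 1 library was left out, with no filter, with no variance trend and with median-ratio scaling (adjusted p 0.0162 to 0.195 over the alternatives). OLIG2, a factor of the oligodendrocyte lineage, was at 3.51 and 2.24 FPKM in vehicle and at 6.09 and 5.89 FPKM in UM-164 libraries. It was not called (adjusted p = 0.0992 from limma). VIM was at 623 and 494 FPKM in vehicle and 346 and 426 FPKM in UM-164 libraries, and NES at 119 and 133 FPKM and at 93.7 and 91.2 FPKM, and neither passed the test. CD44 overlapped between the groups, at 15.9 to 25.3 FPKM. The part of these differences in the collagen values was not tested. Markers of other cells were near 0: the 3 endothelial markers summed to between 0.229 and 0.344 FPKM in vehicle and between 0.447 and 0.659 FPKM in UM-164 libraries, and the 3 immune markers to 0.289 FPKM or less. Of the pericyte markers, the 2 table rows for RGS5 stayed at or below 1.13 FPKM, while CSPG4 and MCAM, which glioma cells also express, summed with RGS5 to between 62.1 and 72.0 FPKM. In bulk RNA, fewer cells that express a gene and less RNA per cell cannot be told apart. Ribosomal, 7SL and related RNAs took 3.74% and 3.38% of all FPKM in the vehicle libraries but 10.01% and 11.5% in UM-164 libraries, and the part of this difference in the collagen values was not tested beyond the rescaling described with the limits.

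Type VI was the largest class of collagen RNA in each library. The 37 genes summed to 465 and 539 FPKM in the vehicle libraries and to 489 and 481 FPKM in the UM-164 libraries, which was 0.159% and 0.192%, and 0.155% and 0.151%, of all FPKM (two-sided exact permutation p = 1). With 2 libraries a group this permutation test cannot give a p below 0.333, so it does not show that the sum was unchanged. Type VI chains took 51.4% and 45.8% of this sum in vehicle and 55.9% and 53.9% in UM-164 libraries, and FACIT chains took between 22.0% and 24.3%. Fibrillar chains took 11.3% and 13.3% in vehicle and 9.26% and 9.10% in UM-164 libraries, and type IV chains between 5.73% and 6.73%. The order of type VI, FACIT, fibrillar and type IV chains was the same in all 4 libraries in the plot of shares, while the remaining chains were just above fibrillar chains in UM-164 replicate 2 and below them in the other libraries.

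**Figure D1:**
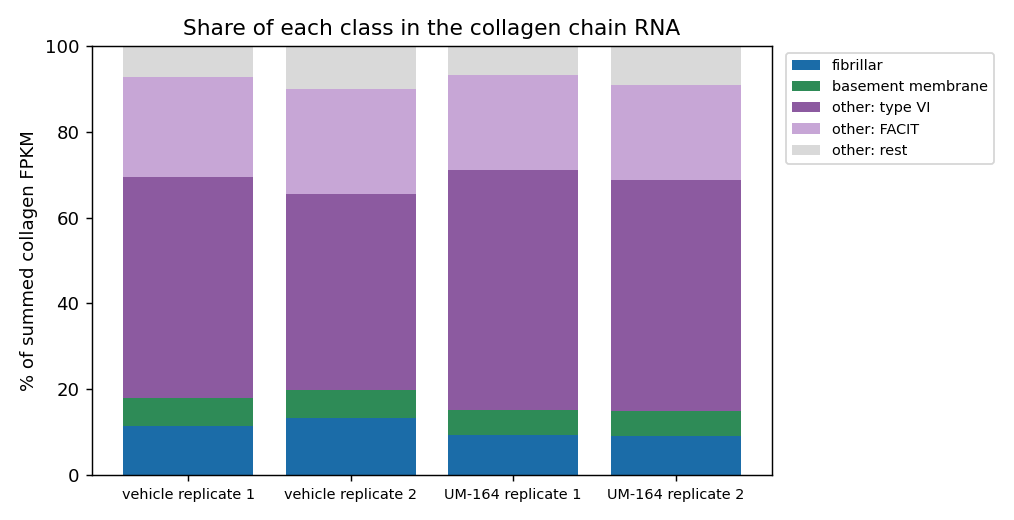
Share of each collagen class in the summed FPKM of the 37 collagen chain genes (y axis, percent), 1 bar for each library. Type VI took the most in each library, from 45.8% to 55.9%, and fibrillar chains took 9.10% to 13.3%.

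Of the 37 genes, 20 had a mean of at least 1 FPKM over the 4 libraries and were tested, and 17 were below this. The 9 genes with a mean of at least 10 FPKM were, from the highest, COL6A2, COL6A1, COL9A3, COL11A1, COL12A1, COL18A1, COL4A2, COL5A1 and COL8A1. COL6A2 and COL6A1 were the only chain genes above 100 FPKM. In this order COL6A2, COL6A1 and COL9A3 were each above the next gene in every library's value, as was COL4A2 above COL5A1, while the ranges of the other neighbours overlapped. The plot of levels shows that each class held a few chains at high levels and a tail below 1 FPKM.

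**Figure D2:**
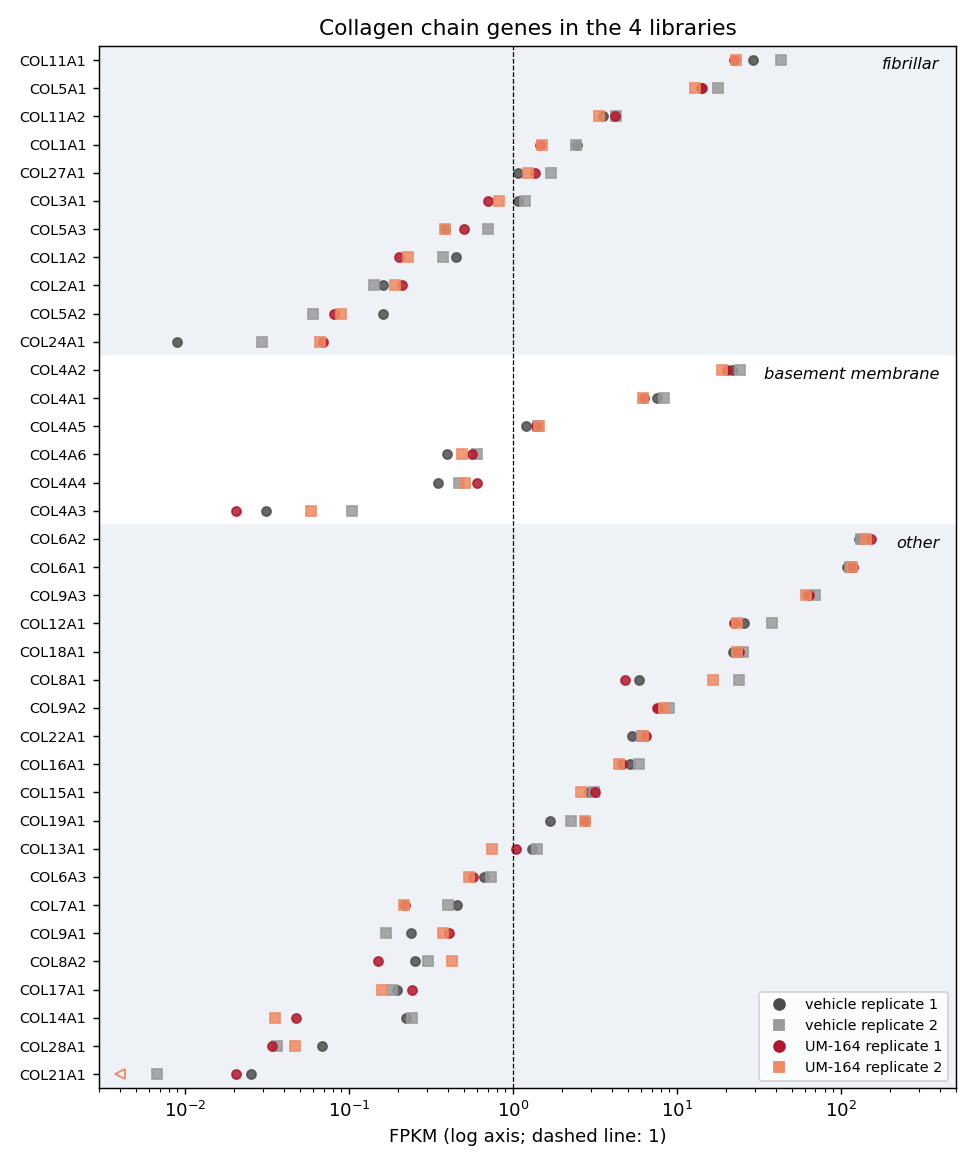
FPKM of the 37 collagen chain genes (x axis, log scale), 1 point for each library, grouped into fibrillar, basement membrane and other chains and ordered by mean level. The dashed line marks 1 FPKM, below which 17 genes had their mean. COL21A1 was listed at 0 in UM-164 replicate 2 and is drawn there as an open triangle at the left edge.

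Promoter windows, 250 bases before to 50 bases after a start site, were taken from the RefSeq table of GRCh38.p14. For the collagen chain genes, 37 windows of 27 genes were used here, some of them overlapping. The other members, among them COL1A1, COL6A1, COL8A1 and COL9A3, had no window and were not searched. The windows printed are those of COL11A1, COL4A2 and COL6A2, the genes with the highest level in the fibrillar, basement membrane and other classes. That of COL12A1, one of the 2 searched genes with a TEAD match, is also printed. TEAD factors are the DNA-binding partners of YAP, whose activity the study examined. Capitals mark matches, on either strand, to the TEAD motif GGAATG, the AP-1 motif TGANTCA, the GC box GGGCGG, the CCAAT box CCAAT and the TATA box TATAAA.
COL11A1 (chr1:103108473-103108772, minus strand): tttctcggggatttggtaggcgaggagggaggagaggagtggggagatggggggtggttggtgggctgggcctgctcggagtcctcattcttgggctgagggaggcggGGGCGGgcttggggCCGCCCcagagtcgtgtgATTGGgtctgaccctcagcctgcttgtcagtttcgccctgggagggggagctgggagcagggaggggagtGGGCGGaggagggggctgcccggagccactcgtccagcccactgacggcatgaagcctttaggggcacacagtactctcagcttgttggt
COL4A2 (chr13:110307034-110307333, plus strand): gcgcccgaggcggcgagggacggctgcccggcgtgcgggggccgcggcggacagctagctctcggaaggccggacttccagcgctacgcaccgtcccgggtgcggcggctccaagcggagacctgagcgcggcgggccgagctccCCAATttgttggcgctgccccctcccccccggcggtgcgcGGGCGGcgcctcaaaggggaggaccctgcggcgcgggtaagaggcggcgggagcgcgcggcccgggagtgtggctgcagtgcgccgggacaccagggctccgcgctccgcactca
COL6A2 (chr21:46097862-46098161, plus strand): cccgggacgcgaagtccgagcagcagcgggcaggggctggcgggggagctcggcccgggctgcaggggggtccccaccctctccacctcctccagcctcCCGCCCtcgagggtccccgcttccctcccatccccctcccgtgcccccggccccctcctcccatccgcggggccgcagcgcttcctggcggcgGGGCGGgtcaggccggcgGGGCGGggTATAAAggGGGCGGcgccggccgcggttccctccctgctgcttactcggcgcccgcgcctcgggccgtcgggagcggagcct
COL12A1 (chr6:75206004-75206303, minus strand): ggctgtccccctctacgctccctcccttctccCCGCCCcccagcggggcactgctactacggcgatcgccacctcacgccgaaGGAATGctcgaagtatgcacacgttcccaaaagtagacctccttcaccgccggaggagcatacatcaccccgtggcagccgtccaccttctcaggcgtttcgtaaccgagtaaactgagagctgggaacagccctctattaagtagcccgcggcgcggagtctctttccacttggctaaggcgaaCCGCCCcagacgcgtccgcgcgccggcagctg
The TEAD letters were in 2 of the 37 collagen windows (COL12A1 and 1 of the windows of COL11A2), against 14% of all 35116 windows in the table, and the AP-1 letters were in 0 of 37, against 7.71%. GC box letters were in 22 windows (45% of all windows), CCAAT box letters in 11 (34.6%) and TATA box letters in 5 (11.5%). No matches to different motifs overlapped in the collagen windows. These are matches of letters and do not show binding. COL6A2 carried a TATA box match 32 bases before its start site, with GC box matches on both sides. COL4A2 and COL4A1 lie head to head on chromosome 13, with RefSeq start sites 127 bases apart, so that 226 bases of the window printed for COL4A2 also belong to that of COL4A1 on the other strand.

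UM-164 treatment was then compared with vehicle on log2(FPKM + 0.5) with limma, which shares the spread between libraries over all genes, with Benjamini-Hochberg adjustment of p over the 11516 genes tested. Fold changes on this scale understate the change of genes with low values. None of the 20 collagen chain genes tested was called at an adjusted p under 0.05 in either direction, against 1.31% of all genes tested (0.86% lower and 0.452% higher). At an unadjusted p under 0.05 there were 3 of 20, against 20.1% of all genes tested. These were COL1A1, COL11A1 and COL4A1, so 3 were lower and 0 higher, against 10.6% and 9.47%. No alternative processing called any of the 20 genes either. The lowest adjusted p was 0.126 for COL1A1 (0.0940 to 0.424 over the alternatives). With 2 libraries a group, a missed threshold does not show that a gene was unchanged, and the interval of each difference is therefore plotted and given for the main genes.

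Most estimates for collagen chains were small. Of the 20 log2 fold changes, 15 were below 0 and 5 above, with a median of -0.08, while over all genes tested 48.1% were below 0 and the median was 0.01. The groups did not overlap in 11 of the 20 genes, with UM-164 the lower in 7 and the higher in 4, against 25.5% and 27.7% of all genes tested. By class, all 5 fibrillar genes tested had log2 fold changes below 0 (median -0.21), 2 of the 3 type IV genes did (median -0.23), and 8 of the 12 other genes did (median -0.06), with 0 called in each class. These direction counts rested in part on vehicle replicate 2. Without it, log2 fold changes were above 0 for COL18A1 (0.092), COL8A1 (0.59) and COL9A2 (0.027). The same held for the fibrillar genes COL11A2 (0.080) and COL27A1 (0.20), while the other genes kept their direction.

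**Figure D3:**
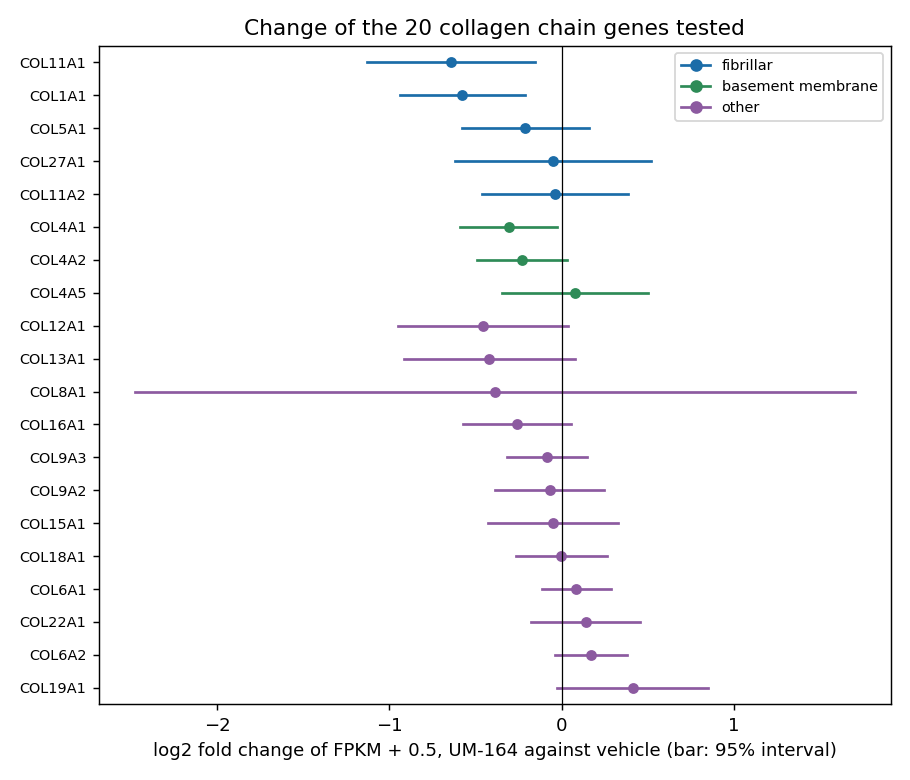
Log2 fold change of FPKM + 0.5 in UM-164 against vehicle libraries (x axis) for the 20 collagen chain genes tested, coloured by class, with 95% intervals from limma as bars. The intervals of 3 genes, COL11A1, COL1A1 and COL4A1, excluded 0 before adjustment, and the interval of COL8A1 was the widest, from -2.47 to 1.70.

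Among fibrillar chains, the largest estimates were those of COL11A1 and COL1A1. COL11A1, a minor fibril chain of cartilage and of many tumours, lies on chromosome 1 from 102876467 to 103108872 (GRCh38, GENCODE release 29). It was at 29.3 and 43.1 FPKM in the vehicle libraries and at 22.2 and 22.9 FPKM in the UM-164 libraries. Both UM-164 libraries were lower than both vehicle libraries, but the vehicle libraries also lay far apart. The log2 fold change was -0.64 (standard error 0.19, 95% interval -1.13 to -0.15, adjusted p = 0.171 from limma), and without vehicle replicate 2 it was -0.37.
COL1A1 encodes the main chain of type I collagen, the most abundant collagen of skin and bone, and lies on chromosome 17 from 50183289 to 50201632. It was at 2.47 and 2.43 FPKM in vehicle and at 1.47 and 1.49 FPKM in UM-164 libraries, and the libraries within each group were close. The log2 fold change was -0.58 (standard error 0.14, 95% interval -0.94 to -0.21, adjusted p = 0.126 from limma), and it stayed between -0.59 and -0.57 when any 1 library was left out. COL1A2, its partner chain in type I collagen, was below the test's minimum, at 0.453 and 0.374 FPKM in vehicle and 0.202 and 0.231 FPKM in UM-164 libraries. The UM-164 libraries were thus the lower for both chains of type I collagen. COL3A1, the single chain of type III collagen, was likewise lower in both UM-164 libraries, at 0.704 and 0.820 FPKM against 1.08 and 1.19 FPKM. COL1A1, COL1A2 and COL3A1 were picked for description after their values were seen. Both UM-164 libraries were the lower in 25.5% of all genes tested. The share was 11.9% of genes with a mean under 1 FPKM, and 15.5% of those above 0 in every library. Of the fibrillar genes under 1 FPKM, 2 were lower and 2 higher in both UM-164 libraries.
COL5A1, a chain of type V collagen that starts and limits the growth of fibrils, was at 13.9 and 17.8 FPKM in vehicle and 14.2 and 12.9 FPKM in UM-164 libraries, so the groups overlapped (log2 fold change -0.21, 95% interval -0.58 to 0.16, and -0.04 without vehicle replicate 2). Its partner COL5A2 had 0.161 and 0.0600 FPKM in vehicle and 0.0806 and 0.0894 FPKM in UM-164 libraries, and COL5A3 had between 0.384 and 0.707 FPKM over the 4 libraries. COL11A2, a partner of COL11A1 in type XI collagen, was at 3.53 and 4.25 FPKM in vehicle and 4.22 and 3.36 FPKM in UM-164 libraries, with no separation of the groups, and the ratio of COL11A1 to COL11A2 FPKM was 8.28 and 10.1 in vehicle and 5.28 and 6.83 in UM-164 libraries. COL2A1, whose gene also supplies a chain of type XI, was at 0.162 and 0.143 FPKM against 0.209 and 0.190 FPKM. COL27A1 was between 1.07 and 1.71 FPKM with overlapping groups, and COL24A1 was at 0.00899 and 0.0295 FPKM in vehicle and 0.0692 and 0.0662 FPKM in UM-164 libraries. Summed over the 11 fibrillar genes, FPKM was 52.5 and 71.7 in vehicle and 45.2 and 43.7 in UM-164 libraries (two-sided exact permutation p = 0.333, the smallest that 2 against 2 libraries allow).

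The pair COL4A1 and COL4A2, which encode the chains of the common type IV network, made up most of the basement membrane class. COL4A2, on chromosome 13 from 110305812 to 110513209, was at 21.8 and 24.2 FPKM in vehicle and 20.2 and 18.8 FPKM in UM-164 libraries. COL4A1, on the opposite strand from 110148963 to 110307233, was at 7.51 and 8.29 FPKM in vehicle and 6.30 and 6.25 FPKM in UM-164 libraries. Both genes were lower in both UM-164 libraries, by a small amount. The log2 fold changes were -0.31 for COL4A1 (95% interval -0.59 to -0.03, adjusted p = 0.221 from limma) and -0.23 for COL4A2 (95% interval -0.49 to 0.03, adjusted p = 0.288 from limma). The ratio of COL4A2 to COL4A1 FPKM was 2.90 and 2.92 in vehicle and 3.20 and 3.01 in UM-164 libraries. The assembled protein holds more COL4A1 than COL4A2 chains, but these RNA values do not measure chains in protein.
The type IV chains of specialised basement membranes, such as those of the kidney, were much lower. COL4A5 was at 1.20 and 1.41 FPKM in vehicle and 1.37 and 1.43 FPKM in UM-164 libraries (log2 fold change 0.08), and COL4A6, its head-to-head neighbour on the X chromosome, was between 0.395 and 0.600 FPKM. COL4A4 was at 0.349 and 0.467 FPKM in vehicle and at 0.601 and 0.509 FPKM in UM-164 libraries, higher in both, while COL4A3, its head-to-head neighbour on chromosome 2, was at 0.104 FPKM or less in every library. The 6 type IV genes summed to 31.3 and 35.1 FPKM in vehicle and 29.1 and 27.5 FPKM in UM-164 libraries (two-sided exact permutation p = 0.333, the smallest possible).

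Among the other types, the type VI genes stood highest. COL6A1 and COL6A2 encode the short chains of type VI collagen, which links cells to the surrounding matrix, and lie in tandem on chromosome 21, from 45981737 to 46005050 and from 46098097 to 46132849. COL6A2 was at 129.6 and 132 FPKM in vehicle and at 153 and 142 FPKM in UM-164 libraries, and COL6A1 at 109 and 114 FPKM and at 119 and 117 FPKM. Both were higher in both UM-164 libraries, by a margin close to the spread within groups. The log2 fold changes were 0.17 for COL6A2 (95% interval -0.04 to 0.38, adjusted p = 0.328 from limma) and 0.09 for COL6A1 (95% interval -0.11 to 0.28, adjusted p = 0.585 from limma).
COL6A3, the long chain that completes the classical type VI heterotrimer, was at 0.670 and 0.739 FPKM in vehicle and 0.568 and 0.541 FPKM in UM-164 libraries. The ratio of COL6A1 to COL6A3 FPKM was therefore 162 and 154 in vehicle and 209.9 and 216 in UM-164 libraries, and that of COL6A2 to COL6A1 was 1.19 and 1.16 in vehicle and 1.28 and 1.21 in UM-164 libraries. Neither ratio overlapped between the groups, but for COL6A2 to COL6A1 the gap between the groups was smaller than the spread within either. The ratios were not tested. The 3 type VI genes summed to 239 and 247 FPKM in vehicle and 273 and 259 FPKM in UM-164 libraries (two-sided exact permutation p = 0.333, the smallest possible), and all 20 genes of the other types to 381 and 433 FPKM and to 414 and 409 FPKM (p = 1 in the same exact test).

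FPKM also differed widely between the FACIT chains of type IX, a collagen best known from the surface of cartilage fibrils. Each type IX molecule has 1 chain from each of its 3 genes. COL9A3, on chromosome 20 from 62816244 to 62841159, was at 62.8 and 69.4 FPKM in vehicle and 63.6 and 60.9 FPKM in UM-164 libraries, and the groups overlapped (log2 fold change -0.08, 95% interval -0.32 to 0.15). COL9A2 was at 7.77 and 8.97 FPKM in vehicle and 7.56 and 8.31 FPKM in UM-164 libraries, also with overlap. COL9A1 was at 0.238 and 0.168 FPKM in vehicle and 0.408 and 0.372 FPKM in UM-164 libraries, higher in both. The ratio of COL9A3 to COL9A2 FPKM lay between 7.33 and 8.41 in all 4 libraries, and that of COL9A2 to COL9A1 was 32.7 and 53.3 in vehicle and 18.5 and 22.3 in UM-164 libraries.
COL12A1, a FACIT chain of tendon and other dense matrix, lies on chromosome 6 from 75084326 to 75206051. It was at 25.8 and 38.1 FPKM in vehicle and 22.2 and 23.1 FPKM in UM-164 libraries (log2 fold change -0.46, 95% interval -0.95 to 0.03, adjusted p = 0.272 from limma). As with COL11A1, vehicle replicate 2 was well above the other 3 libraries, and the log2 fold change without it was -0.18. COL14A1, the FACIT chain most like COL12A1 in domain structure, was near the lower end of the range, at 0.221 and 0.242 FPKM in vehicle and 0.0477 and 0.0353 FPKM in UM-164 libraries. With no filter on low values its log2 fold change was -0.43 (adjusted p = 0.220 from limma).
COL16A1, which is found with fibrils and with fibrillin microfibrils, was lower in both UM-164 libraries, at 4.60 and 4.42 FPKM against 5.17 and 5.86 FPKM. COL19A1, a rare FACIT chain that has been described at synapses in mouse, had the largest positive estimate of the 20 genes. It was at 1.68 and 2.26 FPKM in vehicle and 2.76 and 2.76 FPKM in UM-164 libraries (log2 fold change 0.41, standard error 0.17, 95% interval -0.03 to 0.85, adjusted p = 0.269 from limma). COL22A1, a FACIT chain of tissue junctions, was at 5.29 and 6.15 FPKM in vehicle and 6.49 and 6.18 FPKM in UM-164 libraries. COL21A1 was listed at 0 in UM-164 replicate 2 and at 0.0254 FPKM or less in the other libraries.

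COL8A1, a chain of the type VIII network made by vascular and corneal cells, differed more between replicate numbers than between groups. It lies on chromosome 3 from 99638475 to 99799226 and was at 5.86 and 24.0 FPKM in vehicle replicates 1 and 2 and at 4.81 and 16.7 FPKM in UM-164 replicates 1 and 2. Replicate 2 was 4.10 times replicate 1 in vehicle and 3.46 times in UM-164 libraries. Of the genes tested, 31 of 11516 (0.269%) had replicate 2 at least 2 times replicate 1 in both groups, and COL8A1 was the only one among the 20 collagen genes. Its log2 fold change of -0.39 had a 95% interval from -2.47 to 1.70, and it was 0.59 without vehicle replicate 2. With replicate number as a block it was again -0.39, with an adjusted p of 0.231 from limma against 0.828 without the block. The labels do not say that replicate numbers pair the libraries. COL8A2, the partner chain, was between 0.151 and 0.428 FPKM with overlapping groups. COL8A1, COL11A1 and COL12A1 were also the 3 collagen genes with vehicle replicate 2 at least 1.4 times each other library, which held for 1.56% of all genes tested, a limit chosen after the values were seen.

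**Figure D4:**
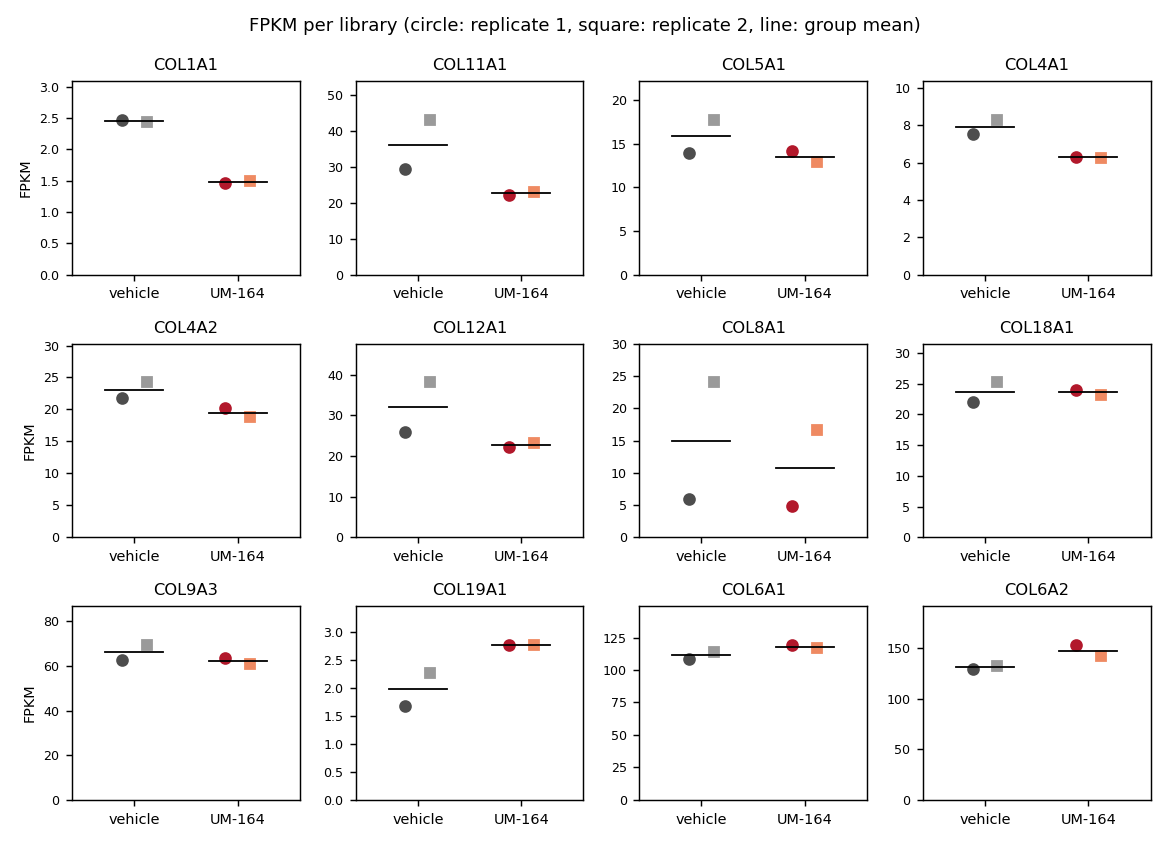
FPKM (y axis, from 0) of 12 collagen chain genes in each library, with circles for replicate 1, squares for replicate 2 and lines for group means. COL1A1 and COL4A1 had UM-164 libraries below both vehicle libraries, vehicle replicate 2 stood highest for COL11A1 and COL12A1, and COL8A1 separated by replicate number, at 24.0 and 16.7 FPKM in replicate 2 against 5.86 and 4.81 FPKM in replicate 1.

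COL18A1, whose protein yields the fragment endostatin, was at 22.1 and 25.2 FPKM in vehicle and 24.0 and 23.2 FPKM in UM-164 libraries (log2 fold change -0.0019, 95% interval -0.27 to 0.26). Exons of SLC19A1 on the other strand cover 16.4% of its exon length, so part of its value is uncertain because the sources do not state that strand was used in counting. COL15A1, its closest relative, was between 2.62 and 3.17 FPKM with overlapping groups. COL13A1, a collagen that spans the membrane at cell adhesions, was at 1.32 and 1.403 FPKM in vehicle and 1.05 and 0.744 FPKM in UM-164 libraries (log2 fold change -0.42, 95% interval -0.92 to 0.07). COL17A1, the membrane collagen of hemidesmosomes, was between 0.158 and 0.243 FPKM. COL7A1, the anchoring fibril collagen of skin, was at 0.456 and 0.404 FPKM in vehicle and 0.219 and 0.216 FPKM in UM-164 libraries, and with no filter its log2 fold change was -0.37 (adjusted p = 0.406 from limma). COL28A1 was at 0.0688 FPKM or less.
Of the 17 genes under the minimum, both UM-164 libraries were lower in 5 (COL1A2, COL3A1, COL6A3, COL7A1 and COL14A1) and higher in 4 (COL2A1, COL4A4, COL9A1 and COL24A1). Among all genes with a mean under 1 FPKM these shares were 11.9% and 16.9%, and among those above 0 in every library they were 15.5% and 24.7%. With no filter on low values none of the 17 was called by limma, against 0.0144% of all genes (0.00361% lower and 0.0108% higher), with 2 of them lower at an unadjusted p under 0.05, against 6.11% of all genes.

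Genes that build, link, bind and break down collagen were examined in 7 lists that held 70 genes of the table, of which 47 were tested. None of the 47 was called in either direction, against 1.31% of all genes tested. At an unadjusted p under 0.05 there were 4 lower and 7 higher, against 10.6% and 9.47% of all genes tested. Of the 47 log2 fold changes, 20 were below 0 and 27 above, against 48.1% below 0 over all genes tested, and the medians were 0.07 and 0.01. The enzymes that hydroxylate and glycosylate new chains in the endoplasmic reticulum, 14 tested, had a median of 0.02. PPIB, a proline isomerase of collagen folding, was at 619 and 552 FPKM in vehicle and 685 and 679 FPKM in UM-164 libraries, and P4HA2, a prolyl hydroxylase subunit, at 28.005 and 28.3 FPKM and at 22.2 and 24.5 FPKM. The lysyl hydroxylase PLOD2 was at 16.8 and 19.97 FPKM in vehicle and 13.4 and 15.7 FPKM in UM-164 libraries, and COLGALT2, a collagen galactosyltransferase, at 1.52 and 1.56 FPKM and at 2.40 and 1.999 FPKM. In each of these 4 genes, picked for the smallest p of their list, the groups did not overlap. Over all genes tested this held for 25.5% with UM-164 the lower and 27.7% with it the higher. None of the 4 passed the test. The 9 chaperone and export genes had a median of 0.16, with 5 above 0 and 4 below. FKBP7, a proline isomerase of the endoplasmic reticulum, was at 3.08 and 2.97 FPKM in vehicle and 3.61 and 4.12 FPKM in UM-164 libraries. FKBP10, a further isomerase that acts on collagen, was at 44.3 and 51.3 FPKM and at 53.5 and 53.9 FPKM, and TMEM38B, an ion channel of the endoplasmic reticulum, at 2.38 and 3.10 FPKM and at 3.44 and 3.31 FPKM. These 3 genes were higher in both UM-164 libraries and SEC24D was lower in both, against the same shares of all genes tested. They too were picked for the smallest p of their list, and none was past the test. SEC24D, of the vesicle coat that carries procollagen, was at 4.25 and 5.61 FPKM in vehicle and 3.65 and 3.60 FPKM in UM-164 libraries. SERPINH1, the collagen chaperone HSP47, was at 149 and 141 FPKM and at 141 and 118 FPKM. The 3 procollagen processing genes tested, BMP1, PCOLCE and PCOLCE2, had log2 fold changes from -0.11 to 0.06.
The cross-linking enzymes LOXL2 and LOXL3, lysyl oxidase relatives that join collagen and elastin chains, were nearest to the threshold. LOXL2 was at 184 and 191 FPKM in vehicle and at 129 and 130.5 FPKM in UM-164 libraries (log2 fold change -0.53, standard error 0.08, adjusted p = 0.0540 from limma). LOXL3 was at 126 and 125 FPKM in vehicle and at 89.2 and 89.9 FPKM in UM-164 libraries (log2 fold change -0.48, standard error 0.07, adjusted p = 0.0601 from limma). Both UM-164 libraries were well below both vehicle libraries for each gene. Both genes passed over genes with a mean of at least 5 FPKM and after rescaling without ribosomal and 7SL RNAs. The lowest adjusted p from limma in these settings was 0.0409 for LOXL2 and 0.0457 for LOXL3. Neither gene was called in the main comparison or under any other alternative. Exons of other genes cover 5.22% of the exon length of LOXL2 and 19.3% of that of LOXL3. LOX, LOXL1 and LOXL4 were at 0.166 FPKM or less, PXDN, which cross-links type IV collagen, and the transglutaminase TGM2 had log2 fold changes of 0.15 and -0.10.
Among 7 collagen receptors tested, the integrin chain ITGA10 was at 0.969 and 0.771 FPKM in vehicle and 1.91 and 1.88 FPKM in UM-164 libraries (log2 fold change 0.81, adjusted p = 0.0971 from limma), and ITGA2 at 2.85 and 2.46 FPKM and at 4.01 and 3.55 FPKM (log2 fold change 0.44, adjusted p = 0.193 from limma). The collagen uptake receptor MRC2 and the collagen receptor kinase DDR1 had log2 fold changes of 0.19 and -0.17. The 4 fibril-associated genes tested all had positive log2 fold changes, with a median of 0.36, while over all genes tested 48.1% were below 0. PRELP, which links matrix collagen to basement membranes, was at 2.47 and 2.38 FPKM in vehicle and 4.23 and 4.79 FPKM in UM-164 libraries (adjusted p = 0.0721 from limma), and the proteoglycan BGN had a log2 fold change of 0.30. SPARC, a collagen-binding protein, was at 434 and 455 FPKM and at 526 and 527 FPKM, and LUM, a proteoglycan that regulates fibril width, at 5.41 and 9.62 FPKM and at 9.85 and 9.94 FPKM. Of 6 genes of collagen breakdown, CTSK, a protease that cuts the triple helix, was at 52.7 and 49.5 FPKM in vehicle and 68.8 and 69.2 FPKM in UM-164 libraries (log2 fold change 0.43, adjusted p = 0.0825 from limma). MMP2, the gelatinase, was at 393 and 395 FPKM and at 336 and 329 FPKM, while the dipeptidase PEPD and the protease CTSB had log2 fold changes of 0.30 and 0.22. None of these genes passed the test.

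**Figure D5:**
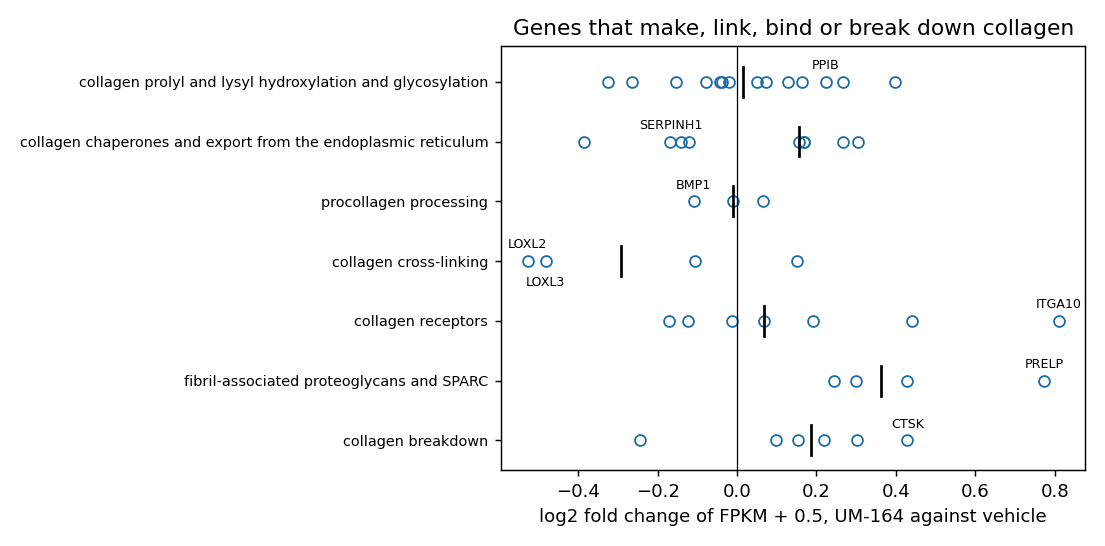
Log2 fold change of FPKM + 0.5 in UM-164 against vehicle libraries (x axis) for the 47 tested genes of the 7 lists, 1 circle a gene, with the median of each list as a black line. LOXL2 at -0.53 and LOXL3 at -0.48 were the lowest, ITGA10 at 0.81 and PRELP at 0.77 the highest, and none was called.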

How the data were processed

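RNA-seq covered 2 vehicle and 2 UM-164 libraries of LN229 cells. Trimming with cutadapt 1.9, FastQC and build GRCh38 are named in the submitters' processing notes, HISAT2 and Ensembl release 101 in the series text, and DESeq2 in the methods. The authors deposited FPKM for each gene and library in 1 table. The program that computed FPKM and any use of strand in counting are not given in the sources used here. Columns with the authors' fold changes and p-values were not used. FPKM holds no read counts, so depth and counting error are unknown.

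The 11516 of 27694 genes whose mean FPKM reached 1 were compared on log2(FPKM + 0.5) with limma 3.58.1 in R 4.3.3, with a variance trend and Benjamini-Hochberg adjustment. The script was tested on simulated data. Alternatives were pseudocounts of 0.1 and 1, other filters and scalings, no trend, a replicate block, each library left out, and a wider basement membrane class. Members, classes and lists were chosen with earlier results of these data known. The genes given in full were those with a mean of at least 10 FPKM, their partner chains, the largest rise and fall, and from each list up to 4 with the smallest p. Other genes with values were picked after these were seen. Of 44 chain genes classified, 7 had no row of that name in the deposited table and were not analysed. Positions come from GENCODE release 29. Python 3.11.15 made the tables.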

Additional observations from a re-analysis of the deposited data

How the results depend on the processing

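None of the 20 collagen chain genes tested was called higher or lower under any of the 13 alternatives, and the lowest adjusted p was 0.0940 from limma. Moving types VII, XV and XVIII to the basement membrane class left 0 called in it and in the other types. Over all genes, 52 were higher and 99 lower, against 3 and 1 without a filter, 22 and 28 with no variance trend, and 66 and 158 at a mean FPKM of at least 5. With each library left out in turn the counts ran from 4 to 45 higher and from 0 to 70 lower, at 4 and 0 without vehicle replicate 1 and 6 and 0 without vehicle replicate 2. Of the list genes, 2 were lower (LOXL2 and LOXL3) at a mean FPKM of at least 5 and 2 after rescaling without ribosomal and 7SL RNAs, against 0 otherwise. The labels do not say that the replicate numbers pair the libraries, and the correlation of deviations between same-numbered libraries was -0.06. The replicate block gave 57 higher and 107 lower genes and 0 collagen chain genes. The direction of 13 of the 20 collagen genes was the same in all 13 alternatives that tested them. Values of the other 7 changed sign, none of them called. COL18A1 had a log2 fold change of 0.041 by quantile normalization. With each library left out in turn, log2 fold changes ran from -0.095 to 0.092 for COL18A1, from -1.36 to 0.59 for COL8A1, from -0.17 to 0.027 for COL9A2, from -0.18 to 0.11 for COL11A2, from -0.17 to 0.067 for COL15A1, from -0.0061 to 0.16 for COL4A5 and from -0.30 to 0.20 for COL27A1. The causes were not tested. A group reduced to 1 library takes its spread from the other group. The depth is unknown, and 17 of the 37 genes were too low to test at the filter used.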
